A study of Mus musculus with 12 samples.

Results

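Interferon-stimulated genes are transcribed when interferon binds its receptors, and 45 of them, named for their textbook place in the response, were followed here through mouse small intestinal epithelium. A row of read counts was at hand for 44 of the 45, among 34245 gene rows in all, and Mx2 is not analysed here. The 44 were grouped by role into 6 transcription factors, 5 sensors of foreign RNA and DNA, 6 members of the OAS family, 3 of the IFIT family, 7 genes of the ISG15 and ubiquitin system, 9 other antiviral effectors, 6 GTPases and 2 secreted proteins. Male mice of C57BL/6 Lgr5-GFP strain, carrying the Lgr5-EGFP-IRES-creERT2 knock-in that makes stem cells fluorescent, were taken at about 8 months (young) and about 27 months (aged). Every group carried the knock-in, and the labels name no treatment. From crypts, cells high in GFP were sorted as intestinal stem cells (ISC), and from villi, cells high in Epcam and negative for CD45 and CD31 were sorted as adult enterocytes (AE). Poly(A) RNA sequencing gave 3 libraries of each of the 4 groups. Libraries are named by the number in their deposited code, 1, 2 and 3 for young and 1, 3 and 5 for aged, and an ISC and an AE library share each number. For 8 of the 12 samples the title sets a code of one group beside words for another. The group used here is the one in the name of the count column.

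Type I and type III interferons signal through JAK1 and TYK2 to a complex that holds STAT2 and IRF9 and binds the interferon-stimulated response element, whereas interferon gamma acts through the gamma-activated site. The products sense foreign nucleic acid, degrade it, block its translation, tag proteins with ISG15, or attack the vacuoles of intracellular pathogens. In gut epithelium, the type III receptor, made of IFNLR1 and IL10RB, is known as a main route of the response, and a low tone of it is present without infection.

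Libraries held between 11893817 and 110794420 counted reads, the deepest being young AE library 3, and 40 of the 44 genes had over 3 counts in each of the 12 libraries. Levels are given as CPM, counts scaled to a common library total with TMM factors over the 12 libraries. Log2 fold changes are given ± SE (n = 3 libraries a group). The labels were checked against markers. The summed level of 10 stem cell markers was 5935 to 8400 CPM over the 6 ISC libraries and 97.0 to 644 in the 6 AE libraries, and that of 12 enterocyte markers was 1579 to 9293 in ISC and 67651 to 106307 in AE. The highest AE value for stem cell markers came from young AE library 2, and the AE gate also held goblet cell markers at 27956 to 56902 CPM. For age, Ccr2, a chemokine receptor that the study names as a marker of aged epithelium, was at 0, 0.0568 and 0 CPM in young and 0.898, 1.3 and 1.69 in aged ISC columns. In AE columns it was at 0.0818, 0.0827 and 0.227 (young) and 3.14, 2.6 and 2.18 (aged), so the ages did not overlap. The study picked Ccr2 from these same libraries, so this is not an independent check of the age labels. Because these were bulk samples, fewer cells of a type and less RNA per cell cannot be told apart.

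The start sites of 34 of the 45 genes were matched to RefSeq promoters (GRCm38.p6), taken from 250 bases before to 50 after the start. The core of the interferon-stimulated response element, 2 GAAA blocks set 2 bases apart, on either strand, was in 19 of the 34 (55.9%), against 3.99% of 27025 genes with a promoter. The gamma-activated site TTCNNNGAA was in 9 of the 34 (26.5%), against 9.55% of those genes. Of the genes given below with every value, those with a match to the response element core are shown. The first such match is in capitals, read 5′ to 3′ on the strand of the gene. Irf7, Sp100, Oasl1, Oasl2 and Ifit2 had a promoter without that core, though Ifit2 had the gamma-activated site. No promoter was matched for Mx1 or Zbp1.
Ifit1: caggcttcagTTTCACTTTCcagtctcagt
Oas3: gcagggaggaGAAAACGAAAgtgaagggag
Ifit3: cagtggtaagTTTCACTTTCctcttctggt
Rsad2: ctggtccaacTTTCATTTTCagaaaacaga
Cxcl10: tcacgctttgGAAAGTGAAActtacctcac
Isg15: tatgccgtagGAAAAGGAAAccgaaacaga
Stat2: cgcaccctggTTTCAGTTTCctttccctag
Bst2: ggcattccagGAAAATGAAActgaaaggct
The windows lie at chr19:34640775-34640804 (plus strand) for Ifit1, chr5:120777715-120777744 (minus strand) for Oas3, chr19:34583363-34583392 (plus strand) for Ifit3, chr12:26456553-26456582 (minus strand) for Rsad2, chr5:92349083-92349112 (minus strand) for Cxcl10, chr4:156200877-156200906 (minus strand) for Isg15, chr10:128270266-128270295 (plus strand) for Stat2 and chr8:71537583-71537612 (minus strand) for Bst2. All 8 lie before the start site, with the motif beginning 75 bases before it in Oas3, 78 in Isg15 and 222 in Stat2. A match to these letters is a description of the promoter and not evidence that a factor is bound.

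Adult enterocytes carried more of the response than stem cells at both ages. Of the 44 genes, 32 were higher in young AE than in young ISC at an FDR under 0.05 and 0 were lower, against 28.9% of 16681 genes called higher and 26.7% called lower. In aged mice 35 were higher and 1, Bst2, was lower, against 30.6% of 15855 genes called higher and 34.2% called lower. The FDR is the Benjamini-Hochberg adjusted p of edgeR's quasi-likelihood test over the genes tested in a comparison. The median log2 fold change of the 44 was 2.23 in young and 2.05 in aged mice, where that of all genes was 0.15 and -0.13. Summed over the 44, the ISC level was 1480.5, 1180.3 and 1089 CPM (young) and 1512, 1019.8 and 1091 (aged). The AE sums were 4667, 3154 and 2841 (young) and 3939.8, 3109 and 3872 (aged), so that each of the 6 AE libraries lay above each of the 6 ISC libraries.

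**Figure D1:**
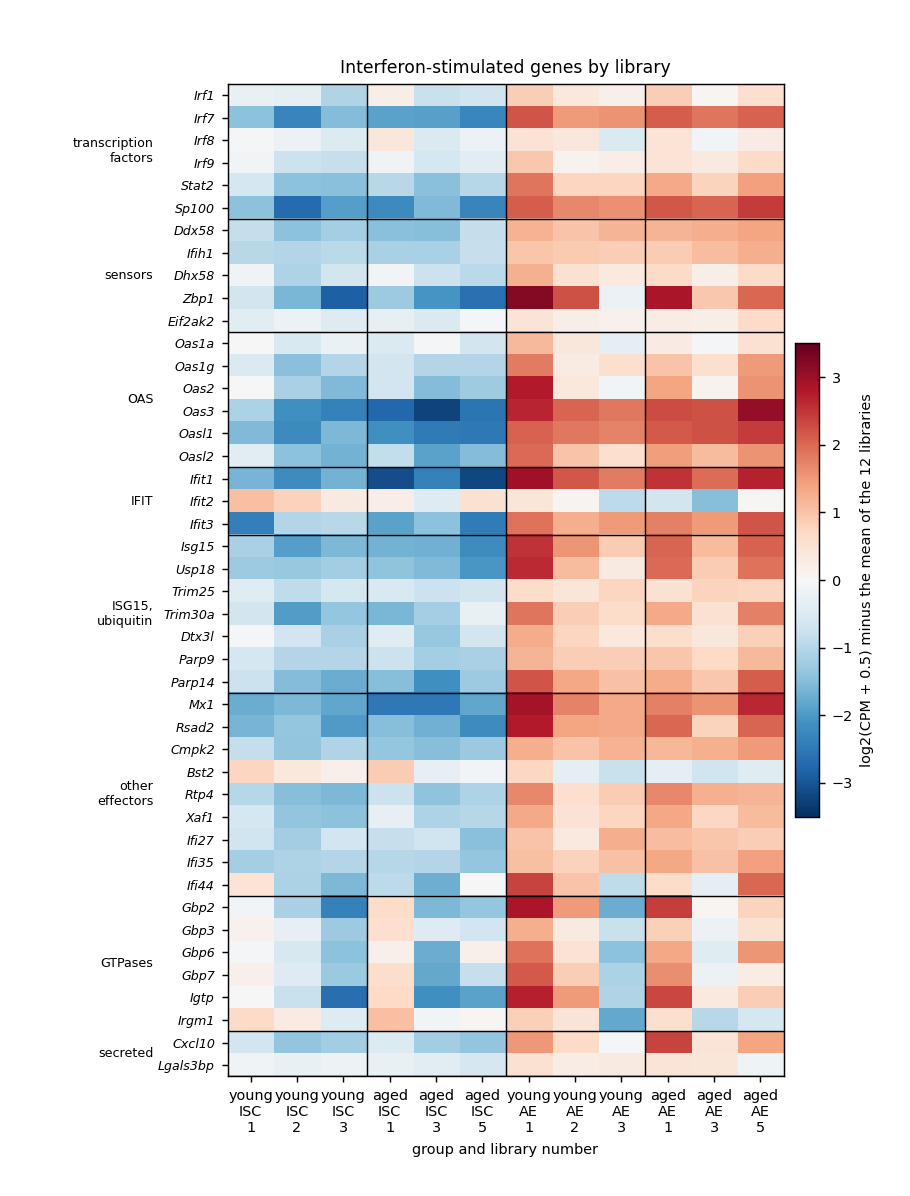
Level of the 44 genes (rows, grouped by role) in the 12 libraries (columns, by group and number), as log2(CPM + 0.5) minus the gene's mean over the libraries. Most rows turn from blue in ISC to red in AE, Ifit2 and Bst2 do not, and the GTPase rows are highest in young 1 and aged 1, except Gbp6 in aged AE.

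Levels of different genes were compared per length of exon, as CPM per kilobase. In young AE the highest was Lgals3bp, a secreted glycoprotein, at 176 per kilobase, followed by Ifi35 at 93.4 and Irf1 at 81.8, and the lowest was Ifit2 at 0.471. In young ISC Lgals3bp and Irf1 led at 119.5 and 40.7, and Cxcl10 was last at 0.0555. The median over the 44 was 2.73 (young) and 2.11 (aged) per kilobase in ISC, and 10.9 (young) and 11.6 (aged) in AE. Genes under 1 per kilobase numbered 17 in young ISC and 18 in aged ISC, and 3 in either AE group.

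Among the transcription factors, 5 of 6 were higher in AE at each age and Irf8 did not pass the test at either. Irf7, the factor that amplifies type I interferon production, stood in ISC at 19.6, 10.6 and 18.8 CPM (young) and 14.4, 14.1 and 10.8 (aged), and in AE at 249, 154 and 163 (young) and 239, 199 and 228 (aged). Each AE value lay above each ISC value, and the log2 fold change was 3.53 ± 0.30 (FDR = 0.000115) in young and 4.0 ± 0.18 (FDR = 1.38e-07) in aged mice. Stat2, a part of the response element complex, stood in ISC at 27.8, 15.6 and 15.2 CPM (young) and 21.6, 15.2 and 21.2 (aged), and in AE at 159, 72.5 and 73.0 (young) and 108, 73.1 and 117 (aged). The log2 fold change of Stat2 was 2.38 ± 0.40 (FDR = 0.00205) and 2.28 ± 0.21 (FDR = 5.81e-06). Sp100, a protein of nuclear bodies, stood in ISC at 6.69, 2.5 and 4.6 CPM (young) and 3.62, 6.15 and 3.42 (aged), and in AE at 83.4, 61.5 and 58.1 (young) and 86.8, 78.4 and 105 (aged). Its log2 fold changes of 3.88 ± 0.35 (FDR = 0.000141) and 4.30 ± 0.25 (FDR = 3.69e-07) were the largest of the 6 at both ages. Irf1 and Irf9 rose by less, with log2 fold changes of 1.01 ± 0.27 (FDR = 0.0119) and 0.99 ± 0.28 (FDR = 0.0164) in young mice, and neither passed with library totals in place of TMM. Irf8, known from myeloid cells, gave 0.44 ± 0.26 (FDR = 0.189) in young and 0.22 ± 0.23 (FDR = 0.425) in aged mice, and its sign flipped with library totals.

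All 5 sensors were higher in AE at both ages. Zbp1, a sensor of left-handed nucleic acid, stood in ISC at 6.44, 3.12 and 1.01 CPM (young) and 3.98, 2.1 and 1.29 (aged), and in AE at 99.9, 50.5 and 8.85 (young) and 78.4, 20.5 and 43.1 (aged). Its libraries differed within each group by up to 11.3-fold, and its log2 fold change of 3.91 ± 1.03 (FDR = 0.0183) in young mice no longer passed the test without young ISC library 2 (FDR = 0.0709), young ISC library 3 (FDR = 0.0508) or young AE library 2 (FDR = 0.0719). In aged mice it was 4.14 ± 0.60 (FDR = 0.000634). The RNA helicases Ddx58 (RIG-I) and Ifih1 (MDA5) had log2 fold changes of 2.30 ± 0.20 (FDR = 0.000104) and 1.91 ± 0.14 (FDR = 7.05e-05) in young mice. Dhx58, a further helicase of that family, had 1.38 ± 0.35 (FDR = 0.0102), and Eif2ak2, the kinase PKR that halts translation, 0.62 ± 0.16 (FDR = 0.0105). Eif2ak2 had the smallest change of the 5 at both ages, and with library totals its sign flipped and the call on Dhx58 was lost.

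Enzymes of the OAS family make the messenger that activates RNase L, and Oasl1 and Oasl2 are its OAS-like members. Oas3 stood in ISC at 5.8, 2.56 and 2.13 CPM (young) and 1.52, 0.917 and 1.78 (aged), and in AE at 85.4, 55.2 and 47.6 (young) and 65.3, 62.0 and 112 (aged). Within a library number the AE level was 14.7 to 67.6 times the ISC level. The log2 fold change of Oas3 was 4.17 ± 0.43 (FDR = 0.000262) in young and 5.72 ± 0.32 (FDR = 2.71e-07) in aged mice. Oasl1 stood in ISC at 8.54, 5.11 and 8.25 CPM (young) and 5.39, 4.21 and 4.09 (aged), and in AE at 109, 93.3 and 87.1 (young) and 116, 121 and 142 (aged). Its log2 fold changes were 3.72 ± 0.24 (FDR = 5.56e-05) and 4.71 ± 0.19 (FDR = 1.33e-07) in young and aged mice. For both genes each AE value lay above each ISC value. Oasl2 stood in ISC at 39.1, 18.3 and 15.9 CPM (young) and 27.5, 13.5 and 17.5 (aged), and in AE at 203, 101 and 77.2 (young) and 142, 109.7 and 152 (aged). Its log2 fold changes were 2.38 ± 0.49 (FDR = 0.00615) and 2.70 ± 0.25 (FDR = 6.49e-06) in young and aged mice. Oas1g was called at both ages, and Oas1a and Oas2 in aged mice. The family thus passed with 4 of 6 in young and 6 of 6 in aged mice, though Oas1a in aged mice turned below 0 with library totals. Oas1a and Oas1g are near-identical copies, and only uniquely mapped reads were kept, so reads that fit both would be missing from both counts. With the library number as a block Oas2 also passed in young mice, at a log2 fold change of 2.17 ± 0.32 (FDR = 0.000802).

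The IFIT proteins bind viral RNA, and the 3 genes did not go one way. Ifit1 stood in ISC at 3.25, 1.99 and 3.14 CPM (young) and 0.842, 1.73 and 0.755 (aged), and in AE at 90.1, 51.2 and 40.4 (young) and 66.1, 44.5 and 73.6 (aged). The log2 fold change of Ifit1 was 4.43 ± 0.37 (FDR = 0.000109) in young and 5.76 ± 0.33 (FDR = 3.07e-07) in aged mice. Ifit3 stood in ISC at 0.0637, 0.965 and 1.01 CPM (young) and 0.309, 0.594 and 0.0444 (aged), and in AE at 10.6, 6.62 and 7.76 (young) and 9.61, 7.89 and 13.0 (aged). The ISC values come from 1, 17 and 18 counts in young and 11, 11 and 1 in aged mice. Its log2 fold changes of 3.57 ± 0.56 (FDR = 0.000998) and 4.96 ± 0.47 (FDR = 6.57e-06) rest on those low values, and reads shared with the near copy Ifit3b would be missing. Ifit2 ran the other way, and stood in ISC at 4.46, 3.69 and 2.47 CPM (young) and 2.33, 1.24 and 2.98 (aged), and in AE at 2.7, 2.07 and 0.777 (young) and 1.05, 0.358 and 1.96 (aged). It was lower in AE in 6 of 6 library numbers. Its log2 fold change of -1.10 ± 0.51 (FDR = 0.0979) and -1.10 ± 0.53 (FDR = 0.0928) did not pass without the block and passed with it, at -1.10 ± 0.34 (FDR = 0.0262) and -1.09 ± 0.38 (FDR = 0.0279).

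All 7 genes of the ISG15 and ubiquitin system were higher in AE at both ages. Isg15, the ubiquitin-like modifier itself, stood in ISC at 3.25, 1.65 and 2.25 CPM (young) and 2.13, 2.05 and 1.29 (aged), and in AE at 46.7, 23.7 and 14.7 (young) and 33.2, 17.4 and 34.0 (aged). The log2 fold change of Isg15 was 3.57 ± 0.49 (FDR = 0.000693) and 3.86 ± 0.31 (FDR = 2.42e-06). Usp18, the protease that removes ISG15 and damps signalling at the type I receptor, followed with 3.26 ± 0.64 (FDR = 0.00388) and 3.68 ± 0.37 (FDR = 1.01e-05). The ligase Trim25, which acts on RIG-I, had the smallest log2 fold change of the 7 at 1.24 ± 0.18 (FDR = 0.000673) and 1.24 ± 0.16 (FDR = 5.01e-05), and was already at 80.3 to 109 CPM in ISC. Parp9 and its partner ligase Dtx3l gave 1.87 ± 0.18 (FDR = 0.000154) and 1.41 ± 0.34 (FDR = 0.00868) in young mice, and the call on Dtx3l was lost with library totals.

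Of the 9 other effectors 7 were higher in young AE and 8 in aged AE. Mx1, a GTPase against influenza virus that is defective in many laboratory strains, stood in ISC at 0.446, 0.568 and 0.393 CPM (young) and 0.0561, 0.054 and 0.40 (aged), and in AE at 23.1, 9.93 and 7.49 (young) and 10.3, 8.96 and 19.2 (aged). Its aged ISC values come from 2, 1 and 9 counts. Its log2 fold change, the highest of the 44 at both ages, was 4.81 ± 0.56 (FDR = 0.000284) in young and 6.19 ± 0.57 (FDR = 3.39e-06) in aged mice. Rsad2, the enzyme viperin, stood in ISC at 0.574, 0.795 and 0.337 CPM (young) and 0.673, 0.54 and 0.222 (aged), and in AE at 22.1, 8.19 and 7.75 (young) and 12.8, 5.2 and 13.1 (aged). Its log2 fold changes were 4.45 ± 0.57 (FDR = 0.000453) and 4.28 ± 0.46 (FDR = 1.80e-05) in young and aged mice. Cmpk2, its neighbour in the genome, gave 2.27 ± 0.19 (FDR = 0.000104) and 2.66 ± 0.16 (FDR = 4.17e-07). Ifi35 rose by a log2 fold change of 2.08 ± 0.15 (FDR = 7.05e-05) and 2.32 ± 0.18 (FDR = 1.55e-06). Bst2, the tetherin that holds virus particles on the cell surface, was the exception and stood in ISC at 17.3, 13.0 and 11.5 CPM (young) and 19.0, 8.1 and 9.37 (aged), and in AE at 16.8, 7.86 and 5.6 (young) and 7.9, 5.91 and 7.31 (aged). It was lower in AE in 6 of 6 library numbers, and its log2 fold change was -0.49 ± 0.40 (FDR = 0.321) in young and -0.88 ± 0.33 (FDR = 0.0364) in aged mice. The aged call did not hold under DESeq2 (log2 fold change -0.78, FDR = 0.053), under RLE scaling (FDR = 0.0547) or in the fit on all 4 groups (FDR = 0.11), and it was lost without aged ISC library 1 or without any single one of the 3 aged AE libraries. With the library number as a block it held, at -0.79 ± 0.23 (FDR = 0.0139).

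Both secreted products were higher in AE. Cxcl10, the chemokine that draws T cells, stood in ISC at 0.319, 0 and 0.0561 CPM (young) and 0.421, 0.054 and 0 (aged), and in AE at 3.19, 1.57 and 0.73 (young) and 6.18, 1.25 and 2.84 (aged). Its ISC values come from 5, 0 and 1 counts in young and 15, 1 and 0 in aged mice. Lgals3bp rose by 0.56 ± 0.17 (FDR = 0.0228) and 0.61 ± 0.21 (FDR = 0.0277) on the log2 scale, and with library totals its sign flipped.

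**Figure D2:**
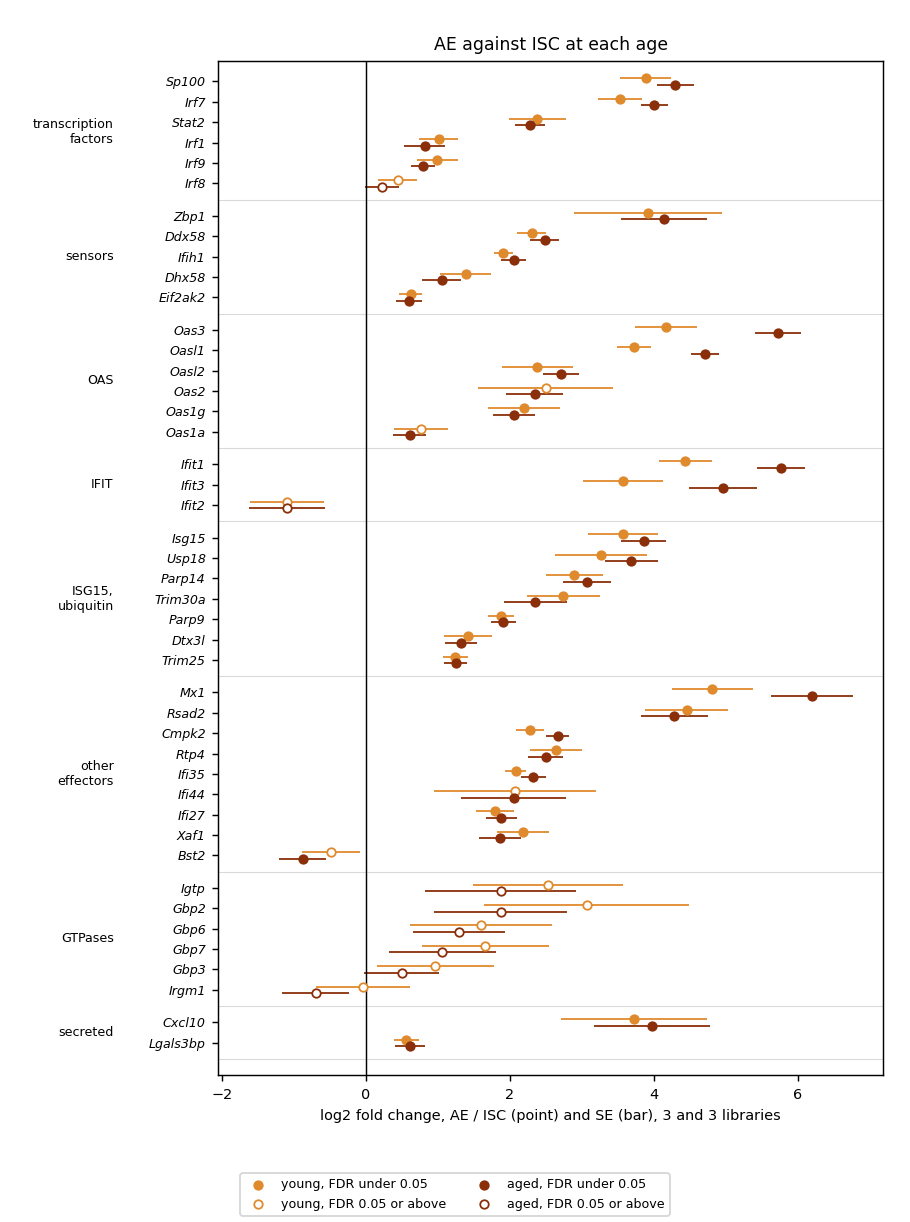
Log2 fold change of each of the 44 genes between AE and ISC (x axis) in young and aged mice, with its SE as a bar, filled where the FDR was under 0.05. The points of 5 of 8 role groups lie right of 0 throughout, Ifit2, Bst2 and Irgm1 lie left of 0 at both ages, and no point of the 6 GTPases is filled.

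The GTPases, from families that act in defence against intracellular pathogens, had 0 of 6 called at either age, and their libraries were spread widely. Igtp (Irgm3), an immunity-related GTPase, stood in ISC at 39.3, 22.7 and 5.89 CPM (young) and 63.9, 8.42 and 10.4 (aged), and in AE at 261, 112 and 18.7 (young) and 201, 50.1 and 71.3 (aged). Library 1 was the highest in every group. Gbp2, a guanylate-binding protein, stood in ISC at 2.74, 1.08 and 0.168 CPM (young) and 4.83, 0.648 and 0.844 (aged), and in AE at 24.4, 9.1 and 0.538 (young) and 17.9, 3.14 and 5.34 (aged). Library 1 was again the highest in every group. The highest of the 3 libraries was a median of 12.7 times the lowest over the 6 genes in young AE, 4.33 times in young ISC, 6.42 times in aged ISC and 3.90 times in aged AE, where the medians over all genes were 1.63, 1.33, 1.5 and 1.31. Within a library number, however, the order of the cell types was regular. The AE level of Igtp was 3.14 to 6.83 times its ISC level over the 6 numbers, and Gbp2, Gbp3, Gbp6 and Gbp7 were also higher in AE in 6 of 6. Irgm1 was lower in AE in 4 of 6 numbers, 3 of them aged. Reads shared between Gbp6 and its near copy Gbp10 would be missing from the counts.

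With the number as a block 5 of the 6 GTPases were higher in young AE, against 29.4% of genes called higher and 27.3% called lower in that fit, and 4 were higher and 1 lower in aged AE, against 32.5% higher and 35.7% lower. Blocked log2 fold changes were 2.26 ± 0.22 (FDR = 0.00014) and 2.24 ± 0.22 (FDR = 1.82e-05) for Igtp, and 3.00 ± 0.35 (FDR = 0.000146) and 2.09 ± 0.27 (FDR = 9.41e-05) for Gbp2. Without the block they were 2.53 ± 1.05 (FDR = 0.0831), 1.87 ± 1.05 (FDR = 0.177), 3.06 ± 1.4 (FDR = 0.111) and 1.87 ± 0.92 (FDR = 0.119). Irgm1 gave -0.75 ± 0.14 (FDR = 0.000833) in aged mice with the block. Over the 44 genes the block gave 39 higher and 1 lower in young, and 39 higher and 3 lower in aged mice. Both unblocked GTPases named here passed without young AE library 3 (Igtp 2.95, Gbp2 3.58 on the log2 scale) and without aged ISC library 1 (Igtp 3.43, Gbp2 3.46). The response element was in the promoters of 5 of 5 GTPases with a promoter, shown for the same 2 genes, at chr3:142620594-142620623 (plus strand) for Gbp2 and chr11:58199512-58199541 (plus strand) for Igtp.
Gbp2: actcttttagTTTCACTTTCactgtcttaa
Igtp: tctaggaactGAAACTGAAAgctgttcggg

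**Figure D3:**
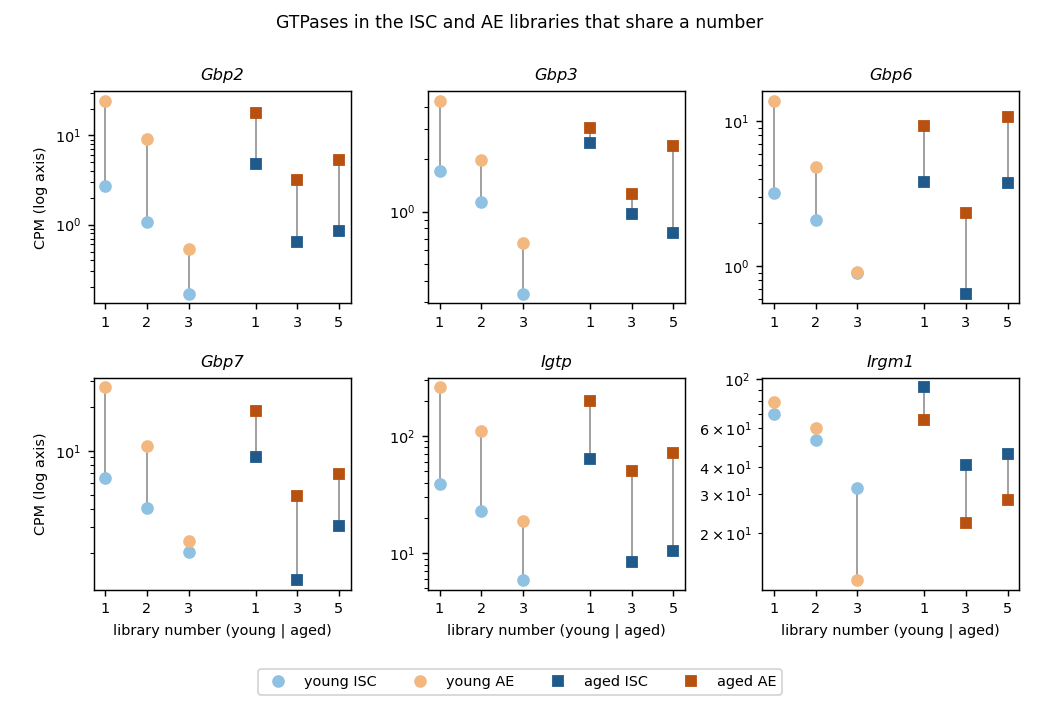
CPM (log axis) of the 6 GTPases by library number, circles for young and squares for aged mice, with a grey line joining the ISC and AE library of the same number. Library 1 is the highest and library 3 the lowest in both cell types of young mice for all 6 genes, and AE lies above ISC at every number except for Irgm1.

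The scaling bears on how these comparisons read, since TMM factors were 1.26 to 1.37 in ISC and 0.72 to 0.82 in AE libraries. With library totals alone, an alternative chosen after seeing the data, the median of all genes moved by -0.71 in young and -0.78 in aged mice on the log2 scale, and the share of called genes that were higher in AE went from 51.9% to 26.2% at the young age and, at the aged one, from 47.2% to 24.5%. The 44 genes then gave 26 higher and 2 lower in young, and 27 higher and 3 lower in aged mice. Over all genes, 2614 were called higher and 7382 lower of 16681 in young mice. In aged mice 2776 were called higher and 8564 lower of 15855. The median of the 44 genes stood 2.08 above that of all genes in young mice with either scaling, and 2.18 above with TMM and 2.17 above with totals in aged mice. A change of scaling moves every gene by nearly the same amount. This gap could therefore hardly change, and it does not test how far the result depends on the scaling. The direction flipped for Irf8, Eif2ak2 and Lgals3bp at both ages and for Oas1a and Gbp3 in aged mice.

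**Figure D4:**
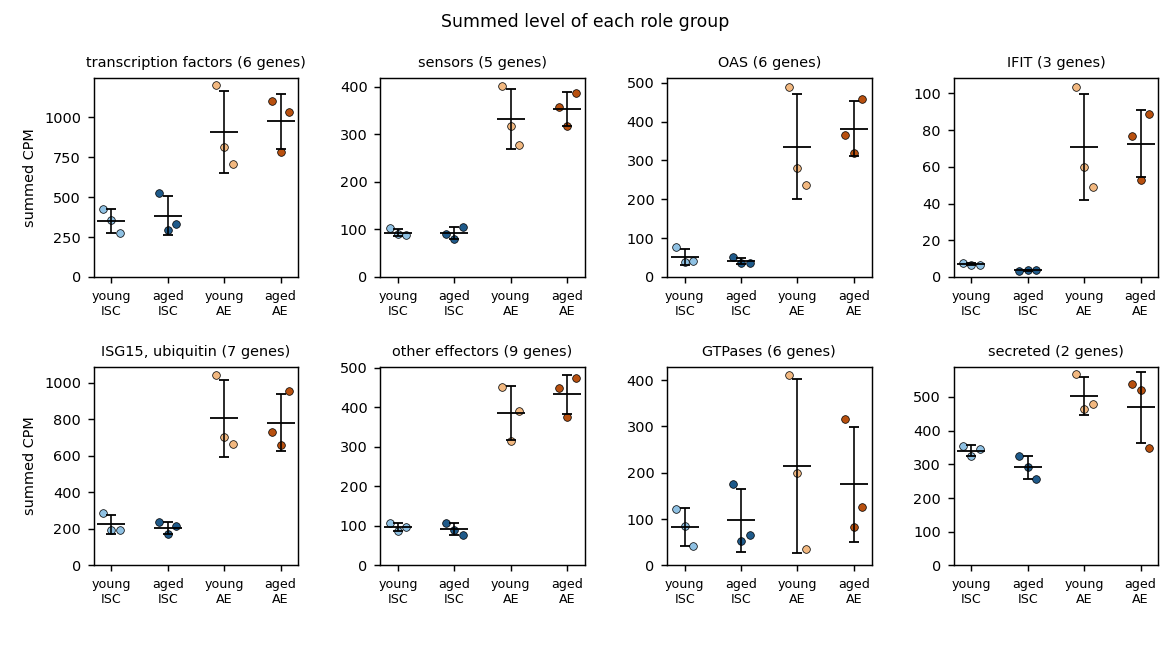
Summed CPM of each role group in the 3 libraries of each group (points), with mean and SD (bars), on axes that start at 0. The AE points lie above the ISC points in 6 of 8 role groups. The GTPases overlap, young AE spanning 35.4 to 410.0 CPM, and the lowest AE sum of the secreted genes (349) lies under the highest ISC sum (353).

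Upstream of these genes, interferon transcripts themselves were near absent from the counts of these sorted cells. Of 20 ligands listed, 19 had 0 counts in all 12 libraries, Ifnb1, Ifng and Ifnl2 among them, and Ifne was at 0.0239 CPM in the deepest library and at 0 in the rest. Only uniquely mapped reads were kept, so any reads shared between similar ligand genes would be missing. The AE gate also left out CD45-positive cells, so the counts do not cover interferon made elsewhere in the tissue. All 6 receptor chains were higher in AE at both ages. Ifnlr1 stood in ISC at 8.79, 6.08 and 8.48 CPM (young) and 10.2, 6.85 and 8.93 (aged), and in AE at 45.9, 33.3 and 58.8 (young) and 57.0, 62.9 and 78.1 (aged). Its log2 fold changes were 2.57 ± 0.26 (FDR = 0.000177) and 2.85 ± 0.20 (FDR = 9.96e-07) in young and aged mice. Its partner Il10rb gave 1.85 ± 0.16 (FDR = 0.000117) and 2.11 ± 0.15 (FDR = 9.94e-07). The type I chains Ifnar1 and Ifnar2 gave 0.74 ± 0.15 (FDR = 0.00294) and 1.80 ± 0.27 (FDR = 0.000786) in young mice, and the gamma chains Ifngr1 and Ifngr2 0.67 ± 0.15 (FDR = 0.00589) and 1.61 ± 0.25 (FDR = 0.000876). Ifnlr1 had the largest log2 fold change of the 6 at both ages. Jak1 and Tyk2 rose by 0.57 ± 0.15 (FDR = 0.0111) and 0.60 ± 0.18 (FDR = 0.0214) in young mice. All of these values are with TMM scaling, and calls with library totals are not given for the pathway genes. Library totals moved the median of all genes by -0.71 in young mice. That is about the size of the rises of Ifnar1, Ifngr1, Jak1 and Tyk2, which therefore depend on the scaling.

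Over the 106 other pathway genes listed, 104 had a row, and of those tested 37 of 77 were higher in young AE and 6 lower, and 42 of 76 were higher in aged AE and 6 lower. Over all genes 28.9% were called higher and 26.7% lower in young mice, and 30.6% and 34.2% in aged mice. Ido1, the enzyme that degrades tryptophan, had the largest rise in young mice, from 1.78, 0.681 and 0.954 CPM in ISC to 439, 163 and 122 in AE, a log2 fold change of 7.73 ± 0.72 (FDR = 0.00030). In aged ISC its level was 0.0842, 0.162 and 0.0888 CPM, at the limit of detection, against 362, 198 and 170.3 in aged AE. Apol9a, Ifit1bl2 and Apol9b came next, with 4.98 ± 0.51 (FDR = 0.000279), 4.71 ± 0.22 (FDR = 4.27e-05) and 4.66 ± 0.37 (FDR = 8.61e-05) in young mice. The genes that fell included the entry inhibitors Ifitm3 and Ifitm2. Ifitm3 stood at 193, 199 and 81.5 CPM in young ISC and 6.22, 13.2 and 0.742 in young AE, or -4.64 ± 1.03 (FDR = 0.00988) on the log2 scale, and Ifitm2 gave -3.51 ± 0.66 (FDR = 0.0047). A pair of cytosolic DNA sensing genes was lower as well, with -3.10 ± 0.79 (FDR = 0.0141) for Mb21d1 (cGAS) and -2.21 ± 0.59 (FDR = 0.0123) for Tmem173 (STING). In aged mice the 4 falls were -6.45 ± 0.50 (FDR = 8.01e-06), -4.89 ± 0.29 (FDR = 3.69e-07), -4.91 ± 0.34 (FDR = 8.77e-07) and -3.85 ± 0.45 (FDR = 1.97e-05), and the AE library with the highest level of all 4 was young AE library 2, the one highest in stem cell markers.

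None of the 44 genes was called for age in either cell type. In ISC 0 of 44 were called by edgeR at an FDR under 0.05 (0% of 15552 genes), with a lowest FDR of 0.868. DESeq2 also called 0 of the 44, where it called 58 genes in all (0.373% of 15540 with an adjusted p). At an unadjusted p under 0.05 there were 3 of 44 (6.82%), all lower in aged ISC, against 5.04% of all genes. Aged and young ISC libraries did not overlap for 3 of 44, Ifit1, Oas3 and Usp18, all lower, against 8.86% of all genes in either direction. The median log2 fold change was -0.10, with 17 genes above 0 and 27 below, and without single libraries it ran from -0.30 to 0.13, turning above 0 without young ISC library 1 (0.13) or aged ISC library 3 (0.02).

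Ifit1 had the lowest p in ISC. Its values were 3.25, 1.99 and 3.14 CPM in young and 0.842, 1.73 and 0.755 in aged ISC, or -1.38 ± 0.40 (FDR = 0.868) on the log2 scale. All 3 aged values lay below all 3 young ones. Oas3 stood at 5.8, 2.56 and 2.13 in young and 1.52, 0.917 and 1.78 in aged ISC, -1.26 ± 0.44 (FDR = 0.922), and without young ISC library 1 its log2 fold change shrank to -0.71. Oasl1 gave -0.66 ± 0.26 (FDR = 0.968) with overlapping libraries. Mx1, the next by p, gave -1.53 ± 0.80 (FDR = 1.00), and -2.94 without aged ISC library 5. Summed over the 3 IFIT genes, the level was 7.77, 6.64 and 6.62 CPM in young and 3.48, 3.56 and 3.78 in aged ISC. This sum is given because Ifit1 had the lowest p. Ifit2 and Ifit3 each had overlapping ages, and so did the sums of every other role group in ISC.

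In the same libraries the 12 enterocyte markers summed to 3849.9, 3490.2 and 9293 CPM in young and 1579, 4956 and 2308 in aged ISC, and 0 of 12 were called for age. Their median log2 fold change was -0.99 with all 12 below 0, with overlapping sums. The 13 markers of T cells and intraepithelial lymphocytes summed to 27.3, 11.5 and 11.1 CPM in young and 3.96, 5.29 and 3.51 in aged ISC, without overlap. Of the 12 of them tested 0 were called for age and 7 had an unadjusted p under 0.05, with a median log2 fold change of -3.22. The part of either cell type in the values of Ifit1, Oas3 and Oasl1 was not tested. The pathway genes Ido1 and Ifit1bl2, which were also far higher in AE, had the lowest p of the list for age in ISC. Ido1 was at 1.78, 0.681 and 0.954 CPM in young and 0.0842, 0.162 and 0.0888 in aged ISC (FDR = 0.256), and Ifit1bl2 at 4.14, 4.6 and 6.29 and 0.533, 1.35 and 2.18 (FDR = 0.644). Neither passed the adjustment, and of 76 pathway genes tested for age in ISC 0 did, with 8 at an unadjusted p under 0.05.

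**Figure D5:**
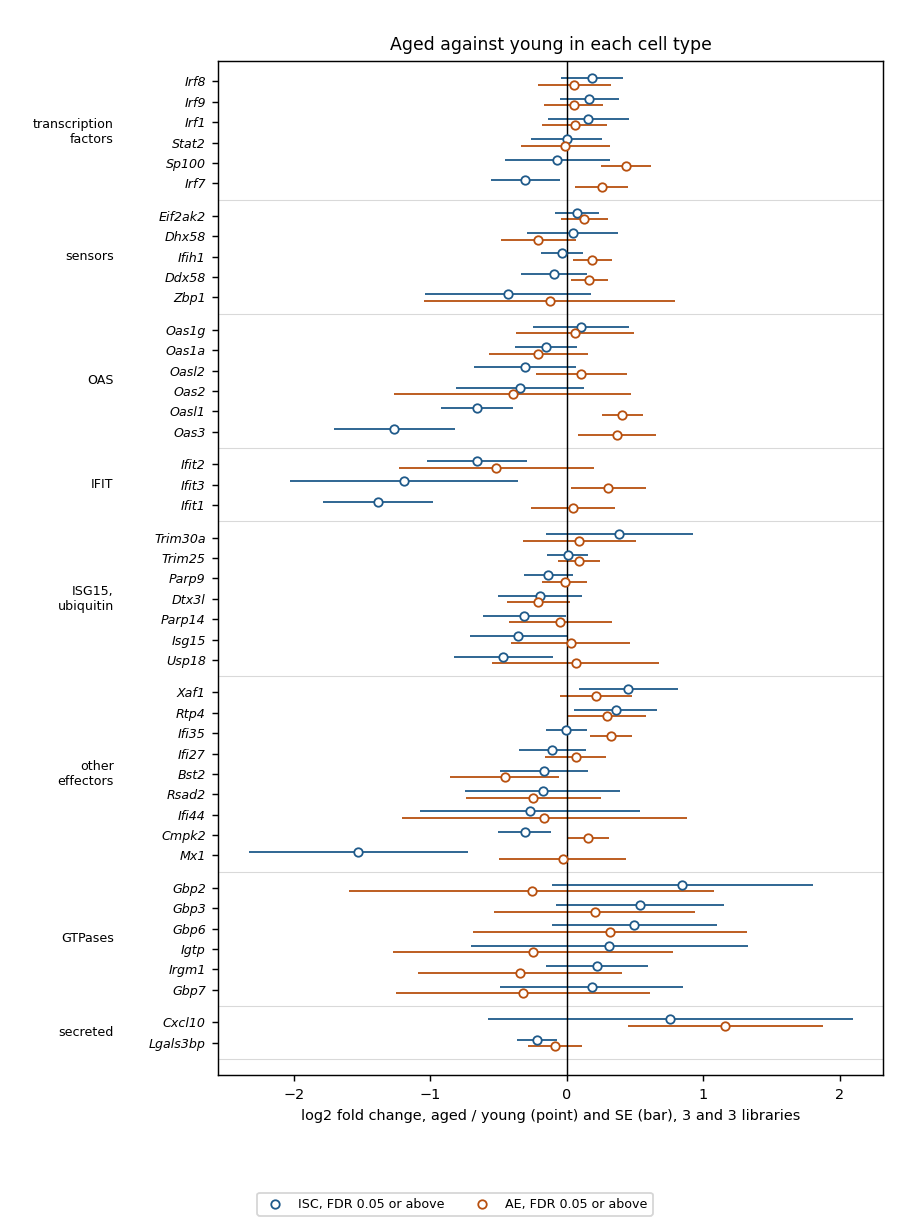
Log2 fold change between aged and young mice (x axis) of each of the 44 genes in ISC (blue) and AE (orange), with its SE as a bar. No point is filled, since none had an FDR under 0.05, and the GTPases and Cxcl10 have SEs of up to 1.34 on the log2 scale.

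In AE 0 of 44 were called for age by edgeR (0% of 16265 genes). DESeq2 also called 0 of the 44, and 18 genes in all (0.123% of 14665 with an adjusted p). At an unadjusted p under 0.05 there were 2 of 44 (4.55%), against 4.79% of all genes, and the libraries did not overlap for 1 of 44, against 10.9% of all genes. That gene was Oasl1, at 109, 93.3 and 87.1 CPM in young and 116, 121 and 142 in aged AE, a log2 fold change of 0.41 ± 0.15 (FDR = 0.844). Sp100 followed at 83.4, 61.5 and 58.1 in young and 86.8, 78.4 and 105 in aged AE, 0.44 ± 0.18 (FDR = 0.844). Both were small changes with an FDR far from the threshold. Ifi35 was at 170.3, 145 and 168 in young and 209.8, 167 and 222 in aged AE (FDR = 0.844), and Cxcl10 at 3.19, 1.57 and 0.73 and 6.18, 1.25 and 2.84 (FDR = 0.844). The median log2 fold change was 0.06 and ran from -0.17 without young AE library 3 to 0.47 without young AE library 1. It was also below 0 without young AE library 2 (-0.07) or aged AE library 5 (-0.03), and with library totals (-0.08).

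Isg15, Irf7, Stat2, Oasl2, Gbp2 and Igtp, taken as representatives of their groups, had overlapping aged and young libraries in both cell types. Ifit1, the remaining representative, overlapped in AE but not in ISC, where each aged value lay below each young value. Among the feedback inhibitors Socs3, which blocks JAK kinases, had the lowest FDR for age of the pathway genes in AE. It stood at 49.4, 44.8 and 50.2 CPM in young and 144, 136 and 105 in aged AE, a log2 fold change of 1.43 ± 0.16 (FDR = 0.102), which edgeR did not call. It is named here although the rule for pathway genes did not pick it.

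The age effect was then compared between the cell types in 1 model of the 12 libraries. Of the 44 genes 0 differed at an FDR under 0.05 in edgeR (0.00575% of 17377 genes) and 0 in DESeq2 (0.34% of 12643 genes with an adjusted p). In edgeR 3 had an unadjusted p under 0.05 (6.82%), against 3.88% of all genes. The difference, AE minus ISC, was 1.06 ± 0.28 (FDR = 0.843) for Oasl1, 1.63 ± 0.55 (FDR = 1.00) for Oas3 and 1.41 ± 0.52 (FDR = 1.00) for Ifit1 on the log2 scale. With the library number as a block 0 of 44 were called, against 0.109% of all genes (19 genes).

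Within a group the libraries were ordered alike over many of these genes. Young AE library 1 had the highest of the 3 values for 42 of 44 genes (95.5%), where it was highest for 34.0% of all genes, and young ISC library 1 for 36 of 44 (81.8%), against 40.6%. In aged mice ISC library 1 was highest for 29 of 44 (65.9%), against 34.6%, while in AE library 5 was highest for 27 of 44 (61.4%), against 31.9%, and library 1 for 16 (36.4%), against 41.1%. The same number was highest in both cell types at both ages for 21 of 44 genes (47.7%), against 20.5% of all genes. That number was 1 in young and 1 in aged mice for 14 of 44 (31.8%), among them 5 of 6 GTPases, Irf1, Irf7, Irf8 and Cxcl10, against 3.80% of all genes. Young and aged libraries numbered 1 share only the digit, and genes that vary together are not separate observations.

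Of 56 further interferon-induced genes listed, 49 reached 10 counts in total over the 12 libraries, and 14 of these (28.6%) were highest in library 1 of all 4 groups, against the same 3.80% of all genes. Nlrc5, the activator of class I antigen presentation, was one of them and stood in ISC at 11.7, 6.47 and 0.225 CPM (young) and 14.8, 1.78 and 6.71 (aged), and in AE at 18.3, 9.51 and 0.431 (young) and 16.2, 2.69 and 14.1 (aged). Irgm2, a further immunity-related GTPase, was another and stood in ISC at 33.0, 19.2 and 4.6 CPM (young) and 51.3, 7.23 and 12.6 (aged), and in AE at 94.6, 59.6 and 13.1 (young) and 73.7, 24.9 and 42.0 (aged). Both are named as examples chosen after their values were seen.

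Lymphocyte markers moved with the library number in some groups. The 13 markers of T cells and intraepithelial lymphocytes summed in ISC to 27.3, 11.5 and 11.1 CPM (young) and 3.96, 5.29 and 3.51 (aged). In AE the sums were 65.0, 27.3 and 20.8 (young) and 66.3, 35.2 and 23.1 (aged), and Cd8b1 was at 0 in both AE groups and Nkg7 in aged ISC. Library 1 was thus highest in young ISC and in both AE groups. In aged ISC, where Igtp was at 63.9, 8.42 and 10.4 CPM, the 3 sums lay within 3.51 to 5.29 CPM and library 1 was not the highest. The 10 monocyte, macrophage and dendritic cell markers summed to 14.5 to 37.8 CPM in ISC and 16.6 to 28.4 in AE, with Itgax, Cx3cr1, Flt3 and Siglech at 0 in all 6 ISC libraries. The 6 B and plasma cell markers summed to at most 2.33 CPM and the 9 stromal and endothelial markers to at most 4.38 in any library. Epithelial markers also differed between libraries. In young AE libraries 1, 2 and 3, goblet cell markers summed to 56902, 27956 and 39162 CPM. Enteroendocrine markers there summed to 11732, 4155 and 2959, tuft cell markers to 600, 372 and 197, and enterocyte markers to 67651, 75106 and 88347. In young ISC, library 1 was lowest for enteroendocrine (267, 524 and 609) and tuft cell markers (149, 206 and 282). Goblet cell markers were highest in library 1 there. The part of any of these cells in the order of the libraries was not tested.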

How the data were processed

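RNA from sorted ISC and AE of young and aged mice was sequenced as poly(A) libraries with a directional kit, 3 libraries a group and 12 in all. Before the files were deposited, the authors trimmed reads with Trim Galore 0.4.4, aligned them to GRCm38 with HISAT2 2.1.0, kept uniquely mapped reads and counted them over exons of merged transcripts in SeqMonk, so that the deposited values are raw read counts per gene. Whether counting used strand is not given in the sources used here. A table of the authors' own comparisons (fold changes and tests) was not used. Titles of 8 among the 12 samples carry a code for one group beside words for another, so each count column was placed in the group that its own name spells. Marker genes were checked for the cell type of each column, and Ccr2, which the study picked from these libraries, for its age.

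From the counts, genes whose counts reached 10 in total across the compared libraries were tested with edgeR 4.0.16 (TMM, robust quasi-likelihood fit, two-sided), with Benjamini-Hochberg adjustment over all genes tested and a threshold of 0.05. Each comparison was fitted on its own libraries, and the difference of the age effect on all 12. SEs are the unshrunk log2 fold change over the root of F. CPM uses factors over 12 libraries, so ratios of CPM differ slightly from fitted folds. Alternatives included DESeq2 1.42.0, other scalings and filters, and leaving out each library. The fitting was tested on simulated data.

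Library numbers were taken to pair ISC with AE, though no label ties a library to a mouse. Deviations from the group mean of same-number libraries correlated at 0.190 to 0.392 over genes in 6 of 6 pairs. In 12 pairs of different number they correlated at -0.341 to 0.113. Deviations within a group of 3 cancel out, so the lower values partly follow from the higher ones, and the pairing remains an assumption. Aged and young libraries are not paired. The study lists 3 mice an age without tying each to a library, so p-values measure only the spread between these libraries, which may be technical. The members and lists were chosen with earlier results of these data known. Genes named with all values were the up to 6 called with the largest rise or fall in each cell type comparison, the 4 with the lowest p in each age comparison, and Isg15, Ifit1, Irf7, Stat2, Oasl2, Gbp2 and Igtp. A level at or under 3 counts was taken as the limit of detection, and this covers counting error only. Promoter sequences are from RefSeq (GRCm38.p6), and exon lengths are the union of annotated GENCODE exons.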

Additional observations from a re-analysis of the deposited data

How the results depend on the processing

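The counts of genes called between AE and ISC stayed within 1.5 times the main value under 30 alternatives, at 28 to 42, and ran from 29 to 39 in young and 32 to 37 in aged mice when single libraries were left out. For age and for the difference of the age effect the count was 0 in the main test and 0 under all 48 alternatives run. Over all genes, however, DESeq2 called 58 for age in ISC, 18 for age in AE and 43 for the difference. The block by library number called 19 for the difference, and every other alternative called at most 3 genes. With so few calls among all genes, a count of 0 in those settings does not test how stable the result is. With library totals the median log2 fold change between AE and ISC was 1.53 in young and 1.26 in aged mice. The age difference of Cxcl10, AE minus ISC, ran from -1.47 without young ISC library 1 to 3.15 without aged ISC library 1, and was also below 0 without aged ISC library 5 (-0.09), young AE library 3 (-0.23) and aged AE library 1 (-0.42); it rests on ISC libraries with few counts. Ordering the libraries by the median of relative log2 CPM in place of the sum kept the order in 3 of 4 groups, and the cause was not tested. The replicate block by library number gave 40 called genes in young and 42 in aged mice, and beyond the genes given above it changed no other call except Ifi44, which passed in young mice. Low counts in ISC limit Mx1, Ifit3, Cxcl10 and Gbp2.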
